A study of Drosophila melanogaster with 3 samples.

Results

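The genes that encode insulator and architectural proteins of Drosophila melanogaster were examined for binding of CG13775 at their own starts and along their bodies. The 10 genes were Chro, Cp190, M1BP, pzg, BEAF-32, su(Hw), CTCF, Ibf1, Ibf2 and ZIPIC, found by symbol in the Ensembl annotation of the Release 6 assembly (dm6), out of 13968 protein-coding genes. For each, every region was taken whose summit, the base that the peak caller marked as its highest point, lay inside the gene or within 500 bp of one of its annotated transcript starts. The median length of the 10 genes was 2649 bp, against 2164.5 bp for all protein-coding genes.

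Insulator proteins bind DNA at the borders of chromatin domains and at promoters, and limit which enhancers and silencers can reach a promoter. In Drosophila most of them are zinc-finger proteins that recognise their own short DNA words, such as su(Hw), CTCF, Ibf1, Ibf2, ZIPIC and M1BP. They share cofactors that do not by themselves choose the sites, of which Cp190 is the best known. Chro and pzg (also called Z4) are found together in the gene-rich interbands of polytene chromosomes, where housekeeping promoters lie.

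The libraries came from a transgenic line that expresses CG13775 fused to green fluorescent protein (GFP) at its C terminus. Whole embryos of both sexes, aged 0 to 24 hours, were used, so cell types and stages are mixed in each library. Chromatin was sonicated to fragments of 200 to 800 bp, and an antibody against GFP was used for the chromatin immunoprecipitation and sequencing (ChIP-seq). All 3 libraries, labelled as biological replicates 1, 2 and 4, belong to 1 group, so the series holds no contrast of conditions and no untagged or input library was analysed here.

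The authors deposited a relaxed list of 30000 regions for each replicate and for the pooled libraries, and an optimal list of 5862 peaks that passed their test of reproducibility, the irreproducible discovery rate. The optimal peaks are the 5862 regions of highest signal in the pooled list. To set the replicates beside the optimal list, each was also restricted to its own 5862 regions of highest signal. The signal of a region is the authors' own value without a stated scale, and its median over those 5862 regions was 87.4, 56.8 and 129.1 in replicates 1, 2 and 4. Signals were therefore compared within a list, as ranks counted from the highest signal or as ratios to that median. The files hold no read counts, so the depth behind the values is unknown.

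CG13775 had an optimal peak near the start of 7 of the 10 genes, and in 4 of these the peak's summit was nearer to the start of another gene. Chro, Cp190, M1BP, pzg, BEAF-32, su(Hw) and CTCF carried an optimal summit no more than 500 bp from a start, while Ibf1, Ibf2 and ZIPIC had none. The background for the same rule was 26.2% of all protein-coding genes (3658 of 13968). The same 7 genes had a start summit in the restricted list of each replicate, where the background was 25% in replicate 1, 25.5% in replicate 2 and 27.4% in replicate 4. All 7 were in every restricted list, against 20.4% of protein-coding genes. When the highest summit also had to lie nearest to the gene's own start, 3 of 10 remained (Chro, BEAF-32 and CTCF), against 18% of protein-coding genes. With so few genes, chosen with earlier results of these data known, these counts are given without a test.

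**Figure D1:**
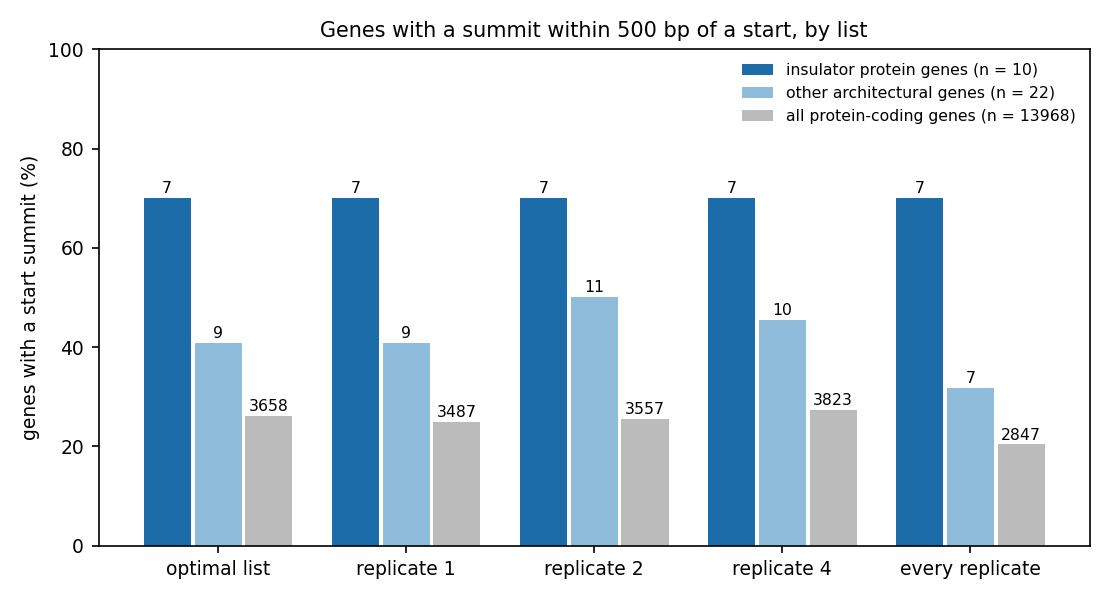
Share of genes (%) with a summit within 500 bp of a start in the optimal list, in the restricted list of each replicate and in all 3 restricted lists together. Bars show the 10 insulator protein genes, 22 other architectural protein genes and all 13968 protein-coding genes, and the number above each bar is its count of genes. The insulator protein genes stand at 7 of 10 in every list.

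The DNA between or beside these starts is shown for the genes the results turn on, because most of them share it with a neighbouring gene that is transcribed the other way. Each run is the plus strand of Release 6 (RefSeq FASTA), 5′ to 3′, in lower case, with capitals marking words searched for on both strands. The words were CGATA (the core bound by BEAF-32), TATCGATA (the core of the DNA replication-related element bound by Dref), GGTCACACT (core of Motif 1, bound by M1BP), GGTGGCGC (part of the CTCF motif), GCATACTTT (part of the su(Hw) motif), GAGAG (bound by the GAGA factor Trl), TGCGGATG, which has no factor named here and was chosen because earlier work on these peaks had pointed to it, and TATAAA (the core of the element that binds the TATA-binding protein). CGATA is contained in TATCGATA. The first 3 runs span the gap between 2 divergent starts at Chro (chr3L:22878985-22879088), pzg (chr3L:21285963-21286098) and Cp190 (chr3R:15275242-15275521). The next 3 are the 101 bp centred on the summit at M1BP (chr3R:8731963-8732063), at su(Hw) (chr3R:14308837-14308937) and between Ibf1 and Ibf2 (chr3R:9258694-9258794). The last is the 101 bp upstream of CTCF (chr3L:7356714-7356814).
Chro to Ssl1: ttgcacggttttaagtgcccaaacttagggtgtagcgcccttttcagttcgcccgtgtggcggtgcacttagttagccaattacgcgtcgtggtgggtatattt
CG12974 to pzg: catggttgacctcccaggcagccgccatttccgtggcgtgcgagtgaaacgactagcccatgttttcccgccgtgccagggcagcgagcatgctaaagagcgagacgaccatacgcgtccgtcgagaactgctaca
Cp190 to CG4338: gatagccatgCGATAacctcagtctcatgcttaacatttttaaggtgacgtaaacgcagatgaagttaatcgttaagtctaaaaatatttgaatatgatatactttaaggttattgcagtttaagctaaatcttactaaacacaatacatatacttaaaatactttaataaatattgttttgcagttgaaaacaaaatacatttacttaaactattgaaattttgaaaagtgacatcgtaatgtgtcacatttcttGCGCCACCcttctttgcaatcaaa
M1BP summit: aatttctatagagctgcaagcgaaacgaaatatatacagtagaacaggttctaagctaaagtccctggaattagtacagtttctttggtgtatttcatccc
su(Hw) summit: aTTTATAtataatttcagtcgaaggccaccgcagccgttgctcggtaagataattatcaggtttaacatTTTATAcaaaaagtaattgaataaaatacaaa
Ibf2 to Ibf1 summit: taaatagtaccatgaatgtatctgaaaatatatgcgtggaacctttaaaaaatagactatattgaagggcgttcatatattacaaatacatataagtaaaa
CTCF upstream: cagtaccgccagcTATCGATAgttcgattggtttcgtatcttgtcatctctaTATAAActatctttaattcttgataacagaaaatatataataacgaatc

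The gaps at Chro and pzg, the M1BP summit window and the window between Ibf1 and Ibf2 held none of the 8 words. The Chro and main pzg summits lie outside these gaps, and each had CGATA within 50 bp, as given below. Of windows as long as the Chro and pzg gaps upstream of protein-coding genes, 28.7% and 32.6% held CGATA. The Cp190 gap held CGATA from its base 11 and the CTCF word GGTGGCGC on the minus strand. Among windows of the same length upstream of the 13968 protein-coding genes, 44.9% held CGATA and 0.752% held GGTGGCGC. The CTCF window held TATCGATA, which reads the same on both strands and so holds 2 overlapping matches of CGATA. It also held TATAAA. Of windows of that length upstream of protein-coding genes, 6.2% held TATCGATA, 28.3% held CGATA and 20.3% held TATAAA. The su(Hw) window held TATAAA at 2 places on the minus strand. A match is a description of the letters and shows no binding of the named factor.

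Chro had the strongest peak of the set. Chro (FBgn0044324, 3L, 22873702 to 22878984, minus strand) encodes Chromator, a chromodomain protein of interbands and of the mitotic spindle matrix. Its optimal peak ranked 11 of 5862 with a signal of 3232.7, where the median of the list was 267.5. Of the 3658 protein-coding genes with an optimal start summit, 12 had a lower rank number. Its signal was 1236.4, 658.8 and 1340.8 in replicates 1, 2 and 4, and its rank was 8, 13 and 11. Relative to the median of each restricted list, the signal was 12.0 ± 1.92 (SD, n = 3). All 3 replicates therefore placed Chro among their 13 highest regions. The summit lay in the 5′ untranslated region, 82 bp inside the gene, and moved over 7 bp among replicates. Ssl1 (FBgn0037202), which encodes a subunit of the general transcription factor TFIIH, starts 105 bp from Chro on the opposite strand. The peak interval (22878682 to 22879125) covered both starts, and the summit lay 187 bp from that of Ssl1.

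Cp190 ranked next. Cp190 (FBgn0000283, 3R, 15270432 to 15275241, minus strand) encodes the BTB-domain cofactor that several insulator proteins recruit. Its optimal peak ranked 87 with a signal of 1564.3. The signal was 521.5, 343.9 and 703.3 in replicates 1, 2 and 4, and the rank was 92, 90 and 91. The 3 ranks of Cp190 thus lay within 2 places of each other, and its signal was 5.82 ± 0.329 times the list median (SD, n = 3). The optimal summit lay between the divergent starts of Cp190 and CG4338, which are 281 bp apart, at 161 bp from Cp190 and 120 bp from CG4338. In replicates 1 and 4 the summit was also nearer to CG4338. In replicate 2 it was nearer to Cp190, at 85 bp against 196 bp, and a further summit of rank 418 lay 6 bp from CG4338.

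M1BP and pzg lay close to each other in rank. M1BP (FBgn0037621, 3R, 8729790 to 8731698, minus strand) encodes the factor that binds Motif 1, a core element of housekeeping promoters. Its optimal peak ranked 284 (signal 1003.6), and its signal was 326.0, 254.6 and 446.3 in replicates 1, 2 and 4, with ranks of 306, 196 and 319. The signal was 3.89 ± 0.532 times the list median (SD, n = 3). The summit lay 315 bp upstream of M1BP and 78 bp from CG8202, whose divergent start is 393 bp from that of M1BP. The interval (8731888 to 8732163) covered the start of CG8202 and not that of M1BP. Replicate 4 split the signal, with a summit of rank 319 at 142 bp upstream of M1BP and another of rank 366 at 49 bp from CG8202.

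The gene pzg (FBgn0259785, 3L, 21286099 to 21290310, plus strand) encodes the zinc-finger protein Putzig, which is found with Chromator in interbands and with the factor Dref. Its optimal peak ranked 328 (signal 944.8), and its signal was 288.4, 222.8 and 431.7 in replicates 1, 2 and 4, with ranks of 386, 262 and 344. The signal was 3.52 ± 0.348 times the list median (SD, n = 3). M1BP ranked ahead of pzg in each replicate, but their ranks overlapped between replicates and their ratios lay within the spread of M1BP. The summit lay 185 bp upstream of pzg and 48 bp from CG12974, whose start is 137 bp from that of pzg, and so beyond the gap shown above. A weaker optimal summit, of rank 3076 (signal 257.6), lay 18 bp inside pzg. The main summit moved over 6 bp among replicates, and the weaker one was found in all 3 relaxed lists, at ranks 15599, 8225 and 2054.

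BEAF-32, su(Hw) and CTCF had weaker peaks. BEAF-32 (FBgn0015602, plus strand, 14770469 to 14772630 on 2R) encodes a boundary factor that binds CGATA. Its highest optimal summit ranked 1878 (signal 364.3), 77 bp upstream of its outermost start, and the replicate signals were 132.4, 75.2 and 161.1 in replicates 1, 2 and 4, at ranks 1610, 2018 and 2115. The signal was 1.36 ± 0.137 times the list median (SD, n = 3), and the summit moved over 3 bp. In the optimal list this summit was 122 bp from a start of the antisense RNA gene asRNA:CR42254. A further optimal summit of rank 3731 (signal 221.0) lay 14 bp inside another annotated start of BEAF-32 (14771301), and 20 bp from another start of asRNA:CR42254.

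The gene su(Hw) (FBgn0003567, 3R, 14304455 to 14308589, minus strand) encodes the zinc-finger protein of the gypsy insulator. Its optimal peak ranked 2972 (signal 265.1), and its signal was 98.2, 48.9 and 106.5 in replicates 1, 2 and 4, with ranks of 2451, 3579 and 3823. The signal was 0.937 ± 0.163 times the list median (SD, n = 3). The summit lay 298 bp upstream of su(Hw) and 202 bp from Polr2I, which encodes a subunit of RNA polymerase II and starts 500 bp away on the opposite strand. The interval covered the start of Polr2I and not that of su(Hw), and in replicate 2 the summit lay 245 bp from su(Hw) against 255 bp from Polr2I.

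CTCF (FBgn0035769, 3L, 7353578 to 7356713, minus strand) encodes the insulator protein that Drosophila shares with vertebrates. Its optimal peak ranked 3705 (signal 222.3), with signals of 75.8, 40.8 and 121.2 in replicates 1, 2 and 4 and ranks of 3483, 4406 and 3195. The signal was 0.841 ± 0.112 times the list median (SD, n = 3), and its distance from that of su(Hw) is within their spread. The summit lay in the 5′ untranslated region, 69 bp inside the gene, and the nearest start of any other gene, that of asRNA:CR45822, was 643 bp away. It moved over 118 bp among replicates, at 130, 47 and 165 bp inside the gene in replicates 1, 2 and 4, and in replicate 4 it lay in an intron.

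The 7 genes fell into the same groups around rank 1000 in each replicate. Chro, Cp190, M1BP and pzg had rank numbers under 1000 in all 3 lists, and BEAF-32, su(Hw) and CTCF had rank numbers over 1000. This limit was chosen after the values were seen. Of the 21 pairs that can be formed from the 7 genes, 20 had the same order in every replicate, and the exception was CTCF ahead of su(Hw) in replicate 4. The median rank of the 7 genes in the optimal list was 328, against 2143.5 for all protein-coding genes with an optimal start summit. In the replicates it was 386, 262 and 344, against 2119, 1987 and 2327 for all protein-coding genes in the same restricted lists. The comparison depends on taking the highest summit of each gene: with the summit nearest to a start, the medians in the optimal list were 2972 for the 7 genes and 2429.5 for all protein-coding genes, which turns the direction round. The 3 weaker genes lay near or beyond the general median, since 45.3% of the 3658 genes had a lower rank number than BEAF-32, 63.4% than su(Hw) and 73.8% than CTCF.

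**Figure D2:**
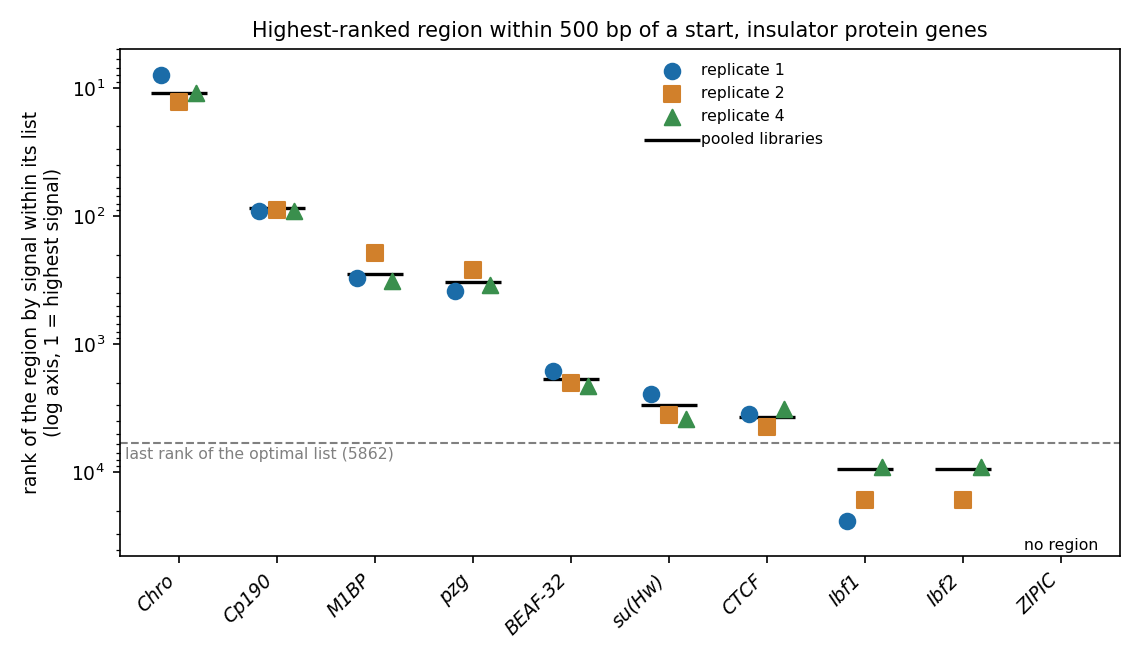
Rank by signal of the highest region within 500 bp of a start, for each insulator protein gene, in the list of each replicate (points) and of the pooled libraries (bars). The vertical axis is logarithmic with the highest signal at the top, and the dashed line marks rank 5862, the last rank of the optimal list. Chro, Cp190, M1BP and pzg have rank numbers under 1000 in every replicate, Ibf1 and Ibf2 lie below the line, and ZIPIC has no region at its start.

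The peaks at 5 of the 7 bound genes lay at a divergent pair of starts, against 66.8% of all 3658 bound protein-coding genes, so this count is near the general share. Of the 10 genes, 7 had a protein-coding gene that starts within 1000 bp on the opposite strand, head to head, against 36.2% of all protein-coding genes. These were Chro with Ssl1, Cp190 with CG4338, M1BP with CG8202, pzg with CG12974, su(Hw) with Polr2I, and Ibf1 and Ibf2 with each other, 463 bp apart. With such a partner, 5 of 7 had an optimal start summit, against 48.4% of the 5052 protein-coding genes with a partner. Without one, 2 of 3 did (BEAF-32 and CTCF), against 13.6% of 8916. Starts of noncoding genes, such as that of asRNA:CR42254 near BEAF-32, were not counted as partners. The interval of the highest peak covered the partner's start in 5 of 5 cases, against 60% of the 2445 bound protein-coding genes with a partner. It covered a start of the insulator protein gene itself in 4 of 7 (Chro, Cp190, pzg and CTCF), against 65.3% of the 3658. These counts hold for the optimal intervals and changed in the replicates. The highest interval of BEAF-32 covered its own start in replicates 1, 2 and 4. Those of pzg and M1BP each covered the gene's own start in replicate 4 and not in replicates 1 and 2. The partner's start was not covered for Chro and su(Hw) in replicate 2 or for M1BP in replicate 4.

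The highest summit lay nearer to a start of another gene in 4 of the 7 bound genes (Cp190, M1BP, pzg and su(Hw)), against 31.1% of the 3658 protein-coding genes with an optimal start summit. Among those with a partner the count was 4 of 5, against 44.9% of 2445. Chro, BEAF-32 and CTCF were themselves nearest to their summits. In the separate replicates, another start was nearer for 4 of 7 in replicate 1, 2 of 7 in replicate 2 and 3 of 7 in replicate 4. The main pzg summit was beyond the start of CG12974 in every replicate. For Cp190, M1BP and su(Hw) the nearer start changed between replicates, and their highest summits spanned 72, 174 and 56 bp. The gene's own start was nearer for Cp190 and su(Hw) in replicate 2 and for M1BP in replicate 4. In each of these cases the list also held a weaker summit nearer to the partner, so the span partly reflects which summit ranked higher. Peaks in these gaps cannot be assigned to 1 gene of the pair.

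**Figure D3:**
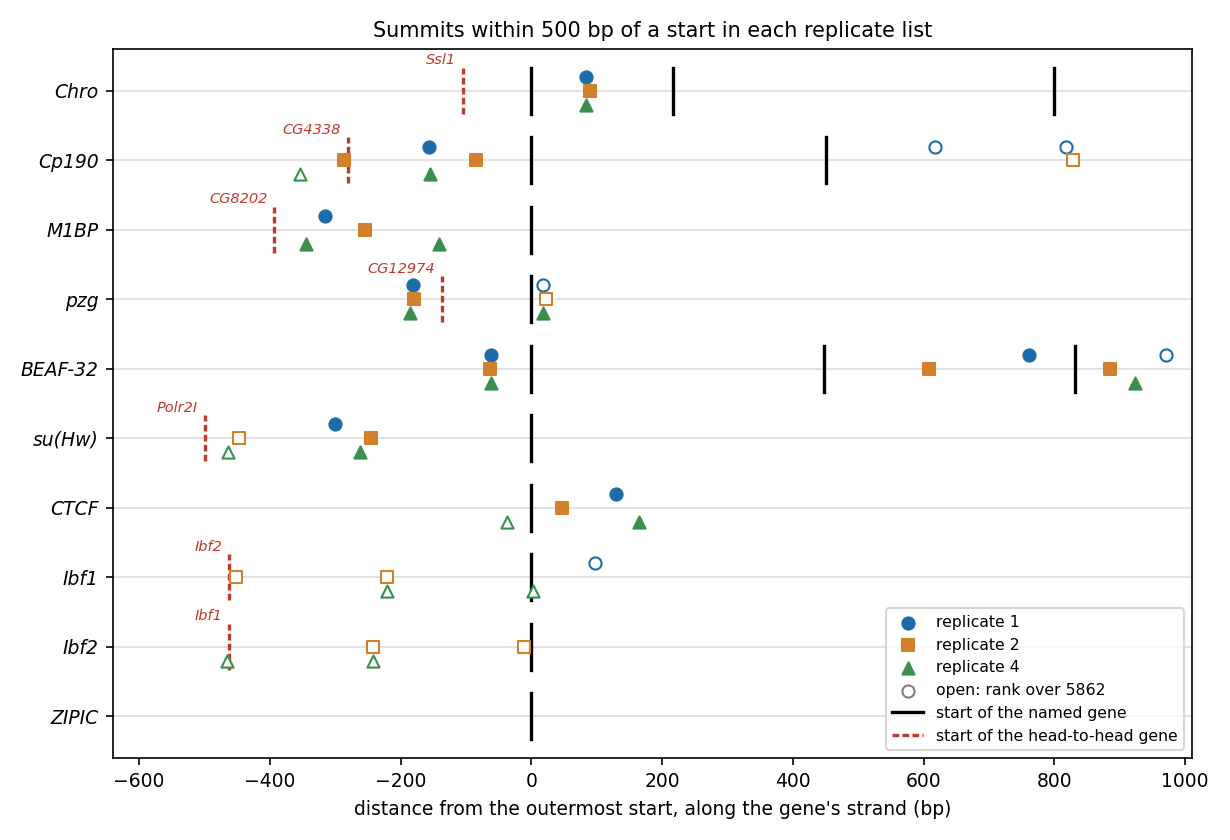
Summits within 500 bp of a start of each insulator protein gene, by distance in bp from its outermost start along its own strand, for replicates 1, 2 and 4. Solid lines mark the annotated starts of the gene, dashed red lines the start of its head-to-head partner, and open symbols regions of rank over 5862. The main summit of pzg lies beyond the start of CG12974 in all 3 replicates and a weaker one lies inside pzg, while the summits of Chro lie inside Chro.

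Several genes had a pair of summits about 200 bp apart, and the spacing is also a property of the lists. No list held summits closer than 199 bp, and spacings of 199 to 204 bp were more frequent than those of 205 to 210 bp, at 299 against 92 in the optimal list. The pzg summits lay 203 bp apart in the optimal list and 199, 202 and 204 bp in replicates 1, 2 and 4. The paired summits of Cp190 in replicate 2, of M1BP in replicate 4, of CTCF in replicate 4 and of su(Hw) in replicates 2 and 4 were each 202 bp apart. These pairs were thus spaced near the closest distance the lists hold, and whether they are separate sites was not tested. The optimal summits of BEAF-32 were 923 bp apart.

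Ibf1, Ibf2 and ZIPIC had no optimal peak at their starts. Ibf1 (FBgn0037670, 3R, 9258964 to 9260400, plus strand) and Ibf2 (FBgn0037669, 3R, 9257727 to 9258501, minus strand) encode zinc-finger proteins that act together and recruit Cp190. They shared a pooled region of rank 9450 (signal 99.4) with its summit 220 bp from Ibf1 and 243 bp from Ibf2, below the lowest optimal signal of 151.3. Regions at the pair ranked 16297 and 16430 in replicate 2 and 9107 and 14546 in replicate 4, and replicate 1 had a region of rank 24012 inside Ibf1 and none within 500 bp of Ibf2. The nearest optimal summit was 1617 bp from Ibf1, of rank 4142, and lay 57 bp from the start of ATP6AP2. ZIPIC (FBgn0039740, 3R, 30035240 to 30036870, minus strand), whose product is a zinc-finger partner of Cp190, had no region at its start in any list. The nearest optimal summit was 2810 bp away, at rank 4104, 39 bp from the starts of Sry-alpha and Sry-beta.

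With the background regions of the relaxed lists included, 9 of the 10 genes had a pooled start summit, against 54% of protein-coding genes. Regions in the relaxed lists of all 3 replicates were present for 8 of 10, against 36.7%. Per the deposited records, the relaxed lists hold background regions beside peaks, so these counts do not stand for binding.

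None of the 10 genes held an optimal summit inside its body and over 500 bp from all of its starts, against 8.25% of protein-coding genes, a share at which a count of 0 among 10 genes shows nothing particular to them. In the pooled relaxed list 5 of 10 did, against 31%. These regions of low signal lay in coding exons of BEAF-32 (rank 27590), CTCF (23499), Chro (21128) and pzg (24282) and in the 5′ untranslated region of su(Hw) (19727). The CTCF summit was 248 bp from a start of asRNA:CR45822, and the su(Hw) summit was 509 bp from its own start, just past the limit. The CTCF, Chro and su(Hw) sites lay at nearly the same bases in replicate 4, whose library is part of the pool, so this is no separate support. They were found in neither replicate 1 nor replicate 2, and no summit inside a gene and away from its starts was in a restricted list. ZIPIC had 2 weak regions in its coding exon in replicate 4 alone, at ranks 18264 and 28243. M1BP had weak regions near its far end in replicates 1 and 4, at ranks 27890 and 22837, both nearest to the start of ranshi. Further weak regions away from the pooled sites lay in pzg in replicate 2, in su(Hw) in replicates 1 and 4 and in BEAF-32 in replicate 4.

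Around the 9 optimal summits at the 7 starts, CGATA was found within 50 bp of 3, against 23.6% of the 2983 optimal summits at protein-coding starts and 17.1% of all 5862. These were the summits of Chro, the main summit of pzg and the weaker one of BEAF-32, with the word centred 8, 8 and 18 bp from the summit. Within 100 bp, CGATA was found at 4 of the 9, against 39.6% of the 2983 summits at starts. TATAAA was within 50 bp of the su(Hw) summit alone, against 21.3% of summits at starts. TATCGATA, GGTCACACT, GGTGGCGC, GCATACTTT, GAGAG and TGCGGATG were within 50 bp of none of the 9, and they were near 4.36%, 1.71%, 0.235%, 0.335%, 8.28% and 1.01% of summits at starts. The CGATA at Chro and at the main pzg summit was within 50 bp of the nearest replicate summit in all 3 replicates. Those replicate summits lay 1 to 8 bp from the optimal ones, so this follows from their position and is no separate support for the word. That at BEAF-32 was within 50 bp of it in replicate 2 and not in replicates 1 and 4, whose summits lay 85 and 78 bp from the optimal one.

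The other genes of chromosome architecture gave a mixed picture. Of 22 further genes for insulator factors, cohesin, condensin and associated chromatin proteins, 9 had an optimal start summit, against 26.2% of protein-coding genes, with a median rank of 2095. In every restricted list 7 of 22 had one, against 20.4%. The highest was SA1, which encodes a cohesin subunit, at rank 32 (signal 2122) and at 35, 25 and 30 in replicates 1, 2 and 4. The optimal summit lay 119 bp upstream of SA1 and 95 bp from the start of Gas41. Gas41 was also nearer in replicates 1 and 4, and SA1 was nearer in replicate 2. This optimal summit lay 4055 bp from CG13775, the tagged gene, on 2L, where none of the 10 insulator protein genes lies. How much flanking DNA the transgene carries is not given in the sources used here, and its part in this rank was not tested.

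Dref, which encodes the factor for the DNA replication-related element, ranked 362 with its summit 13 bp from the start of the ribosomal protein gene RpL13. Trl, the GAGA factor gene, ranked 774, and Cap-H2, a condensin II subunit gene, ranked 917 with its summit 58 bp from the start of the Mediator gene MED7. The insulator gene pita ranked 2095, and JIL-1, which encodes a histone H3 kinase, ranked 3661. The summit was nearer to another start in 4 of 9, against 31.1% of bound protein-coding genes. A head-to-head partner was present for 12 of 22, against 36.2%, and 7 of these 12 were bound, against 48.4%. Of the 10 without a partner, 2 were bound, against 13.6%, and 4 of the 22 held an optimal summit inside the gene, against 8.25%. No pooled start region was found at dwg, Elba1, Elba2, Elba3 or Nipped-B, the last of which encodes the cohesin loader.

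**Figure D4:**
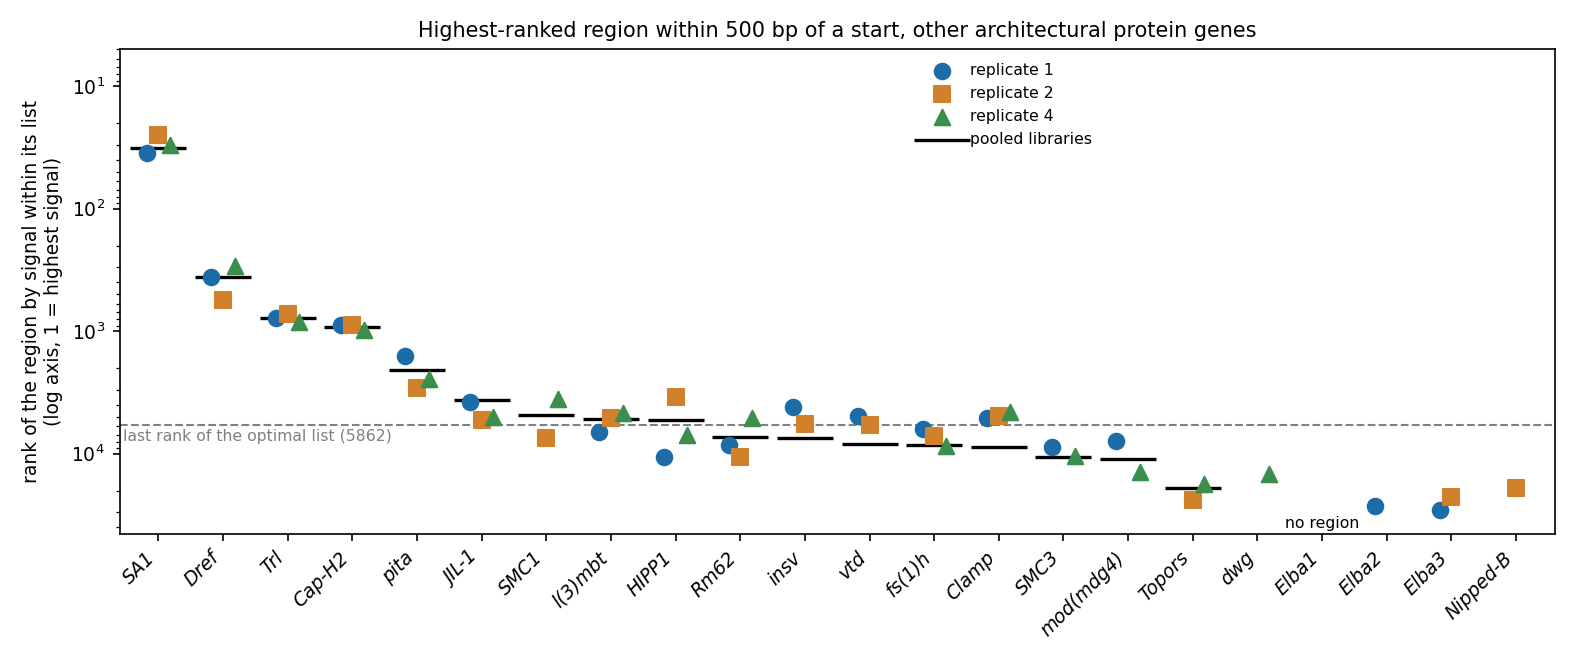
Rank by signal of the highest region within 500 bp of a start, for 22 other architectural protein genes, in the list of each replicate (points) and of the pooled libraries (bars), on a logarithmic axis with the highest signal at the top. Genes run from the highest pooled rank at the left, and the dashed line marks the last rank of the optimal list. SA1, Dref, Trl and Cap-H2 have rank numbers under 1000 in every replicate, and Elba1 has no region in any list.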

How the data were processed

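ChIP-seq of GFP-tagged CG13775 was analysed from the dm6 region lists of 3 replicates (1, 2 and 4), of their pool and of the optimal set. Each region carries a signal that the authors deposited without a stated scale, and a summit offset. Per the deposited records, the relaxed lists are input to the reproducibility procedure, and the optimal list is its output. The aligner, the peak caller and the kind of control are not given in the sources used here, and depth is unknown. Summits were placed on Ensembl release 115 genes of genome release 6 (18277 genes, 13968 of them protein-coding, 23694 distinct starts). Members were matched by symbol. Named genes are the 10 genes, any gene with a nearer start, head-to-head partners within 1000 bp, and, of the 22 other architectural genes, the 6 with the highest optimal start signal and those with no pooled start region; genes nearest to the unbound members and a few others were named once their values were known. The members and lists were chosen with earlier results of these data known, so no test was run on them. Calculations used Python 3.11.15, numpy 2.4.6, pandas 2.3.3 and matplotlib 3.10.9, and the assignment of summits to starts was tested on simulated data. The dm3 lists were not used. Alternatives covered the distance from the start, the list, replicate support, nearer neighbouring starts and each replicate left out.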

Additional observations from a re-analysis of the deposited data

How the results depend on the processing

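The count of 7 of 10 genes with an optimal start summit was 5 at 250 bp (21.4% of protein-coding genes), 7 at 1000 bp (29.3%), 5 among the 2931 optimal peaks of highest signal (16.4%), 7 with support in every replicate (20.6%) and 9 in the pooled relaxed list (54%). It was 3 (18%) when the highest summit had to be nearest to the gene's own start. Leaving out each replicate in turn gave 7 genes each time, and the count of genes found in every replicate also stayed at 7. The optimal list was not rebuilt without a replicate. These values follow from the same 7 genes being in each restricted list, so they are no separate support. For the other architectural genes the count of 9 was 5 among those 2931 peaks, 5 with the own start nearest, and 7 to 9 with each replicate left out. The count of 0 genes with a summit inside and over 500 bp from their own starts was 5 in the pooled relaxed list. It stayed at 0 with each replicate left out, which follows from no such summit being in a restricted list. The median rank of 328 was 262 in replicate 2 and 2972 when the summit nearest to the start was taken in place of the highest, where the weaker summits of pzg and BEAF-32 replace the higher ones, against 2429.5 for all protein-coding genes by the same choice. No paired analysis was possible because all libraries belong to 1 group. Depth limits cannot be given, since the files hold no read counts. A rank describes a list and not an occupancy, and no control library was analysed.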

Other observations

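Clamp, which encodes a zinc-finger protein that binds GA-rich sequence, was 1 of 6 protein-coding genes (0.043%) with a start summit in every restricted list and none in the optimal list. Its regions ranked 5114, 4904 and 4543 in replicates 1, 2 and 4 and 8805 in the pooled list. They lay 315 and 265 bp upstream of its start in replicates 1 and 2, and 423 bp inside the gene in replicate 4, so the replicates did not share 1 site. In replicates 1 and 2 the start of lncRNA:CR44809 was nearer to the summit, at 210 and 260 bp. The opposite case, an optimal start summit without one in every restricted list, covered 817 protein-coding genes (5.85%), among them SMC1, l(3)mbt and HIPP1 and none of the 10 insulator protein genes.

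Most regions of each list have 1 fixed width, which was 464 bp for 68.8% of optimal peaks and 416, 440 and 484 bp for 97%, 97.9% and 94.1% of the regions of replicates 1, 2 and 4. The peaks of Chro, Cp190, M1BP and pzg, and the highest of BEAF-32, had other widths (444, 441, 276, 496 and 151 bp), while those of su(Hw) and CTCF were 464 bp wide. For su(Hw) and CTCF, whether the optimal interval covers a start therefore depends partly on the fixed width. The same holds in the replicates for intervals of fixed width, such as the highest of BEAF-32.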
